A study of Mus musculus with 8 samples.

Results

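Skeletal muscle runs through mouse skin as a thin sheet, the panniculus carnosus, and 40 of the 55418 genes in the deposited tables were followed here as its readout. They were chosen by name, as known genes of developing and adult skeletal muscle, and all 40 symbols matched a gene in each library. They comprise 6 embryonic or neonatal isoforms (Myh3, Myh8, Myl4, Actc1, Tnnt2 and Chrng), 13 genes of adult fast fibres, 6 genes of slow fibres, 9 genes shared by fibre types, 4 myogenic transcription factors and the acetylcholine receptor subunits Chrna1 and Chrne. The study sequenced RNA from skin of wildtype mice and of mice called hairloss, which carry a spontaneous mutation whose gene the labels do not name. Each genotype was sampled at postnatal days 0, 16, 19 and 28, with 1 library per genotype and age, so 8 libraries in all. The labels name no transgene or treatment, the strain and the number of animals behind each library were not given in the sources used here, and the question of the series concerns keratin genes rather than muscle. In a bulk skin library, fewer muscle cells and less RNA per muscle cell cannot be told apart.

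Muscle fibres pull with myosin motors on actin filaments, and troponin and tropomyosin on the actin filament make that pull depend on calcium. Many of these proteins come in isoforms from separate genes, and fibres replace embryonic and neonatal isoforms with adult fast or slow ones around and after birth. Fast fibres contract quickly and rely more on glycolysis, whereas slow fibres resist fatigue, and skin muscle of the mouse is known as a mostly fast muscle.

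The libraries held an estimated 30900000 to 44700000 fragments, so 3 fragments of a 1 kb transcript amount to 0.067 to 0.097 FPKM, a floor for counting error only. FPKM, the unit the deposited values were taken to be in, scales fragments to transcript length and library size, so levels of different genes are on 1 length-corrected scale. The epidermal gene Krt14 was at 399 FPKM or more in every library. Markers of sex differed between libraries of 1 age: Ddx3y, a Y-linked gene, was listed at 0 in hairloss at days 0 and 28 and was at 15.8 to 20.4 FPKM in the other libraries. Xist, which marks the inactive X chromosome, was at 51.3 FPKM in wildtype at day 0 and 12.4 at day 19 beside Ddx3y, and at 76.1 and 50.2 in hairloss at days 0 and 28. The part of sex in the muscle differences was not tested.

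Of the 6 myosin heavy chain genes followed, 5 lie near one another on chromosome 11 of build mm10, on the plus strand. By GENCODE M21 their order is Myh3 (chr11:67078300-67102291), Myh2 (chr11:67171027-67197517), Myh1 (chr11:67200052-67224575), Myh4 (chr11:67238029-67260446) and Myh8 (chr11:67277124-67308634). Stretches of 160 bases just before the RefSeq start were taken for the embryonic (Myh3), the neonatal (Myh8) and the fastest adult (Myh4) heavy chain gene. Myh3 and Myh8 made up most heavy chain FPKM at day 0, and Myh4 led at day 19 in both genotypes and at day 28 in hairloss. The choice left out Myh1, which led at day 16 in both genotypes and at day 28 in wildtype. The 3 stretches are from build GRCm38.p6, the same assembly as mm10, plus strand, and hold no annotated exon. They lie at chr11:67078140-67078299, chr11:67276964-67277123 and chr11:67237652-67237811. Capitals mark a TATA box (TATAAA, or TTTATA where it is on the opposite strand) and an E-box (CAGCTG), the kind of site that myogenic factors bind.
Myh3: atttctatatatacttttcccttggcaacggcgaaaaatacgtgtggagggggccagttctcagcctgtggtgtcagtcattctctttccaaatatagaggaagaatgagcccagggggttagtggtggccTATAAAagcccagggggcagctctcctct
Myh8: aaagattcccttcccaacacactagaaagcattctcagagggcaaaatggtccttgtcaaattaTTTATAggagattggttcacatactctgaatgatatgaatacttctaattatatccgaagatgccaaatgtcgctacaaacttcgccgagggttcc
Myh4: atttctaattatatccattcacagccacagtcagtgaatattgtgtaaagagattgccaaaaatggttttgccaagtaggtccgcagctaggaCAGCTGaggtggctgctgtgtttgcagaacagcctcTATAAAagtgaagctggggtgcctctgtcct
The TATA box began 29 bases before the start in Myh3 and 31 bases before it in Myh4, which also held an E-box 67 bases before it. Myh8 held a TATA box only at 96 bases before its start and on the opposite strand. Over the 250 bases before the start, on both strands, CAGCTG was found in 16 of the 33 members with a RefSeq entry (48.5%) and in 14.7% of 27025 genes. TATAAA was found in 8 of 33 (24.2%) against 14.3%, and the MEF2 box in 1 of 33 (3.03%, Ttn) against 0.592%. These are matches of letters, not measured binding.

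The total of the 40 genes moved widely between libraries. Their summed level was 10643 FPKM in wildtype and 13091 in hairloss at day 0, 2797 and 1477 at day 16, 10298 and 4927 at day 19, then 5136 and 11462 at day 28. Muscle RNA was thus lowest at day 16 in both genotypes, lower in hairloss than in wildtype at days 16 and 19, and higher in hairloss at days 0 and 28. Of the summed FPKM of coding genes they took 2.69%, 0.544%, 2.52% and 1.02% in wildtype at the 4 ages, and 3.19%, 0.302%, 1.08% and 2.63% in hairloss. The hairloss library of day 0 was the highest for 22 members and the hairloss library of day 16 the lowest for 21.

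**Figure D1:**
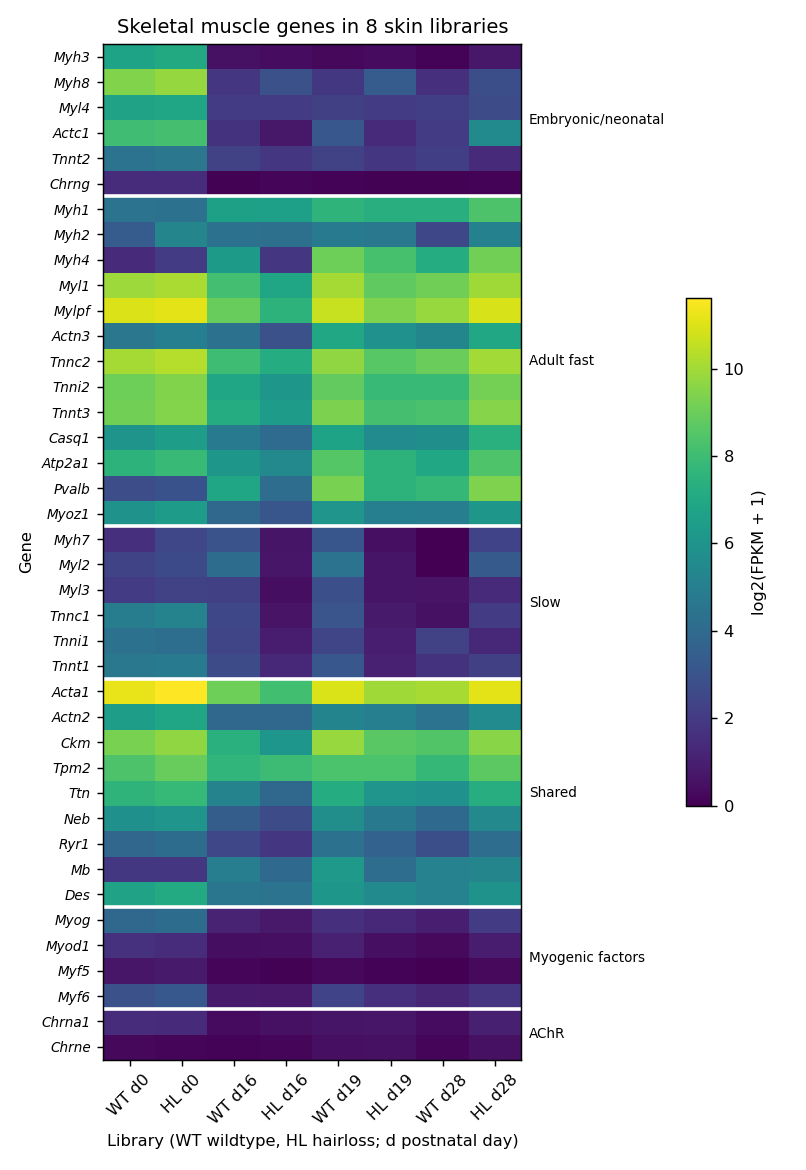
Level of each of the 40 genes (rows, grouped by class, on a log2(FPKM + 1) colour scale) in each of the 8 libraries (columns). Embryonic and neonatal genes are brightest in the day 0 columns, though Chrng, at most 1.82 FPKM, is dim in every column. Actc1 also reached 46.8 FPKM in hairloss at day 28. Most adult genes are dimmest in hairloss at day 16.

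The clearest change after birth was the loss of the embryonic and neonatal isoforms. Myh8, the neonatal (perinatal) myosin heavy chain, was at 684 FPKM in wildtype and 870 in hairloss at day 0. Wildtype skin held 2.53, 2.73 and 2.02 FPKM at days 16, 19 and 28, and hairloss skin 6.27, 9.35 and 5.93. Both day 0 libraries were above all 6 later ones by more than an order of magnitude, and the hairloss library was above the wildtype one at each age. Myh3, the embryonic heavy chain, was at 106 and 131 FPKM at day 0 (wildtype, then hairloss) and between 0.0864 and 0.658 in the 6 later libraries. Myl4, the embryonic alkali light chain, was at 101 and 113 FPKM at day 0 and between 3.03 and 5.21 later. In limma, with genotype as a block, the mean of the 3 later ages minus day 0 on log2(FPKM + 1) was -7.20 ± 0.23 for Myh8, -6.50 ± 0.20 for Myh3 and -4.57 ± 0.15 for Myl4 (SE, 8 libraries), each with an adjusted p of 0.00136.

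Tnnt2, the troponin T of the heart and of embryonic muscle, was at 20.5 and 23.4 FPKM at day 0 and at 1.70 to 3.90 later, and fell by 2.55 ± 0.21 on the log2 scale (limma, adjusted p = 0.0107). Chrng, the fetal gamma subunit of the muscle acetylcholine receptor, was at 1.82 and 1.79 FPKM at day 0 and at 0.0491 to 0.123 later, near the floor, and fell by 1.38 ± 0.15 (limma, adjusted p = 0.0162). So 5 of the 6 embryonic or neonatal members fell (6.72% of all genes tested did). The exception was Actc1, the actin of the heart and of fetal muscle. Its values were 268 and 292 FPKM at day 0, 2.30 and 0.702 at day 16, 7.79 and 1.73 at day 19, then 3.13 and 46.8 at day 28, wildtype first. All later libraries were below day 0, but the hairloss library of day 28 stood far above the other 5, and the difference was -5.68 ± 1.14 (limma, adjusted p = 0.0536).

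Of the 13 adult fast genes, 2 rose (5.11% of all genes tested did) and 0 fell (6.72% of all), and their median difference was -0.52. With 13 genes, these counts are too small to set the class apart from all genes. Myh1, the heavy chain of type IIx fibres, was at 20.2 and 18.9 FPKM at day 0, 94.9 and 93.7 at day 16, 188 and 162 at day 19, then 156 and 333 at day 28, wildtype first, and rose by 2.93 ± 0.29 (limma, adjusted p = 0.0143). All 6 later libraries were above both of day 0. Pvalb, parvalbumin, the calcium buffer of fast fibres, was at 5.69 and 6.54 FPKM at day 0, 112 and 16.7 at day 16, 625 and 180 at day 19, then 210 and 669 at day 28, and rose by 4.65 ± 0.93 (limma, adjusted p = 0.0489). Myh4, the heavy chain of type IIb fibres, was at 1.67 and 3.25 FPKM at day 0, 79.2 and 2.60 at day 16, 526 and 300 at day 19, then 144 and 567 at day 28. The hairloss library of day 16 lay within the range of day 0, and the later minus day 0 difference of 5.21 ± 1.39 had an adjusted p of 0.0862 in limma.

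None of the other 10 adult fast members passed, which does not show that their levels were kept. Myh2, the heavy chain of type IIa fibres, ranged from 4.74 FPKM in wildtype at day 28 to 38.5 in hairloss at day 0, with a difference of -0.06 ± 0.64, or 0.17 without day 28. The 9 others (Myl1, Mylpf, Actn3, Tnnc2, Tnni2, Tnnt3, Casq1, Atp2a1 and Myoz1), which encode fast light chains, fast troponins, alpha-actinin 3, calsequestrin, the fast calcium pump and a Z-disc protein, had differences from -1.55 (Mylpf) to 0.58 (Actn3). Mylpf and Tnnc2 (-1.44) were higher in both day 0 libraries than in any later one.

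Of the members shared by fibre types, Mb rose and Actn2 and Des fell. Mb, myoglobin, the oxygen store of muscle, was at 2.74 and 2.54 FPKM at day 0 and between 14.7 and 73.9 later, a difference of 3.09 ± 0.45 (limma, adjusted p = 0.0256). Actn2, the Z-disc crosslinker alpha-actinin 2, was at 89.4 and 117 FPKM at day 0 and at 13.7 to 48.3 later, a difference of -2.01 ± 0.29 (limma, adjusted p = 0.0248). Des, the intermediate filament protein desmin, was at 102 and 135 FPKM at day 0 and at 20.3 to 70.2 later, a difference of -1.58 ± 0.29 (limma, adjusted p = 0.0356). Acta1, Ckm, Tpm2, Ttn, Neb and Ryr1 did not pass, with differences of -1.75 (Ttn) to -0.52 (Tpm2).

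The slow genes Tnni1 and Tnnt1, slow troponin I and T, fell, with differences of -2.56 ± 0.30 and -2.70 ± 0.55 (limma, adjusted p = 0.0187 and 0.0430), and Tnnc1, slow and cardiac troponin C, had a difference of -3.46 ± 0.84 (adjusted p = 0.0624). Among the transcription factors that drive muscle differentiation, Myog, myogenin, was at 13.8 and 16.2 FPKM at day 0 and at 0.754 to 3.02 later, a difference of -2.69 ± 0.31 (limma, adjusted p = 0.0179). Myf6 fell by 1.61 ± 0.26 (limma, adjusted p = 0.0299), while Myod1, at 2.15 and 1.78 FPKM at day 0 and at most 1.08 later, had a difference of -0.96 ± 0.26 (adjusted p = 0.0681). Chrna1, the receptor's alpha subunit, fell by 0.84 ± 0.19 (limma, adjusted p = 0.0489). Myf5, a factor of myoblasts, and Chrne, the adult epsilon subunit, stayed under 1 FPKM in every library (at most 0.781 and 0.432) and were not tested.

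In all, 3 of the 38 members tested rose (5.11% of the 18724 genes tested did) and 12 fell (6.72% of all). The members' median difference was -1.36 on the log2 scale, against -0.05 for all genes. Both day 0 libraries were above all 6 later ones for 20 of the 38 members tested, a pattern that 21.2% of the genes showed, and below them for 3 (14.7% of the genes). The SE and p of this contrast come from how the difference between the genotypes varied over the ages, with 3 residual degrees of freedom. A constant genotype difference does not enter them, and they may not reflect animals. Without day 16, 0 members rose and 3 fell (Myh3, Myh8 and Myl4). Those 3 passed under all 10 alternative settings, Pvalb under 5 of 10, Tnnt1 under 6 of 10, Chrna1 under 3 of 9, and the other 9 under all but 1 or 2.

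**Figure D2:**
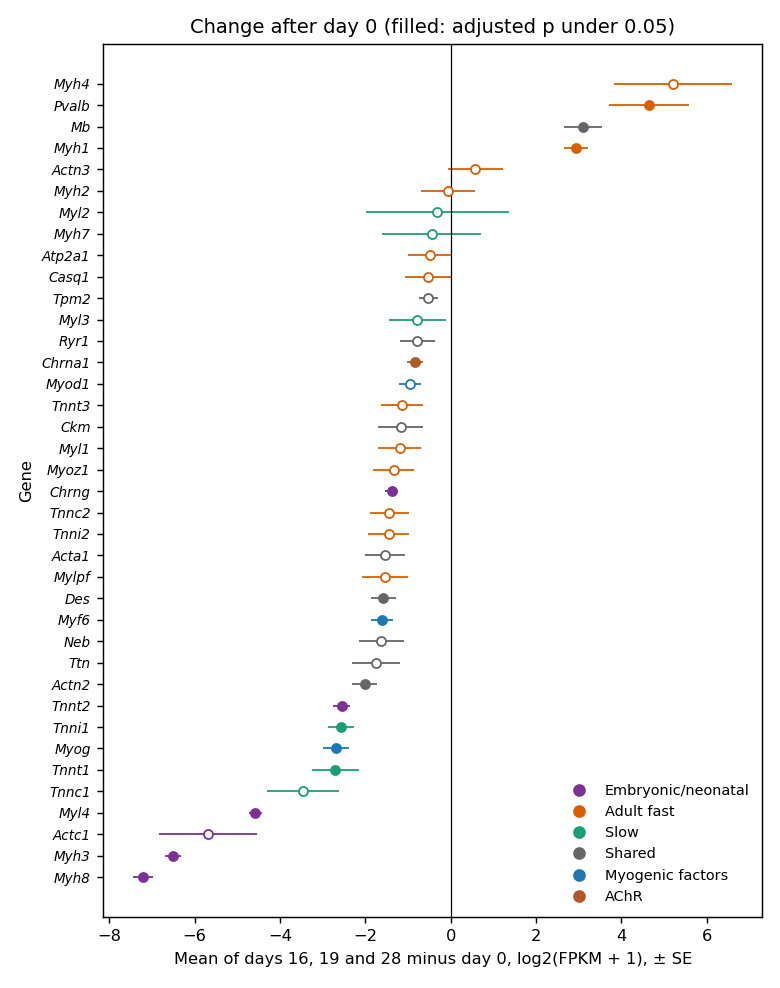
Mean of days 16, 19 and 28 minus day 0 on log2(FPKM + 1) for the 38 members tested, with the standard error from limma over 8 libraries. Filled points have an adjusted p under 0.05, coloured by class. Myh8, Myh3 and Myl4 stand at the bottom with short error bars, and Myh4, at the top with an SE of 1.39, is an open point.

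By successive ages, 1 member rose from day 0 to day 16 (Myh1; 3.58% of all genes rose) and 11 fell (4.42% of all). Those 11 were Myh3, Myh8, Myl4, Tnnt2, Chrng, Tnni1, Actn2, Des, Myog, Myf6 and Acta1, the main actin of adult fibres. Acta1 was at 2417 and 3146 FPKM at day 0, 537 and 272 at day 16, 1999 and 995 at day 19, then 1112 and 2294 at day 28, and its step to day 16 was -2.85 (limma, adjusted p = 0.0482). Without a filter on low values, limma called 0 that rose and 7 that fell in this step. From day 16 to day 19 limma called 0 members in either direction (0.00534% of all genes rose and 0.0107% fell, 0.016% together), with 17 members at an unadjusted p under 0.05, all higher at day 19, against 5.21% of all genes. Ckm, the muscle creatine kinase, was higher at day 19 by 2.48 ± 0.65 (limma, adjusted p = 0.673). From day 19 to day 28 limma called 0 members (0% of all genes) and 0 had an unadjusted p under 0.05. In wildtype the summed level of the 40 genes was lower at day 28 than at day 19, and in hairloss it was higher.

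Shares within a family are free of how much muscle RNA a library holds only if all RNA of the family comes from muscle. Whether it does was not tested. The heavy chain shares separated birth from the later ages in both genotypes. Myh3 and Myh8 together made up 96.0% of the summed FPKM of 6 heavy chain genes in wildtype and 93.9% in hairloss at day 0. Later they made up 1.47%, 0.388% and 0.685% in wildtype at days 16, 19 and 28, and 5.36%, 1.94% and 0.698% in hairloss. At days 16 and 19 the share that remained was thus larger in hairloss, and at day 28 the values were close. A share has 1 value per genotype and age and was not tested.

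The adult heavy chains that took over differed between the genotypes at day 16. In wildtype at day 16, Myh1 made up 46.8% and Myh4 39.1% of heavy chain FPKM, whereas in hairloss Myh1 made up 76.6% and Myh4 2.12%. At day 19 Myh4 led in both, with 70.1% in wildtype and 60.4% in hairloss. At day 28 Myh4 made up 46.8% and 60.0% and Myh1 50.9% and 35.3%, wildtype first. Myh1, Myh2 and Myh4 share sequence: 30.5%, 28.9% and 18.9% of their 50-base windows also occur in another gene, mostly one another, so how reads were divided among them is uncertain. For Myh8 it is 16.7% (9.2% with Myh2). Its low values after day 0, and the share that remained, carry the same uncertainty.

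**Figure D3:**
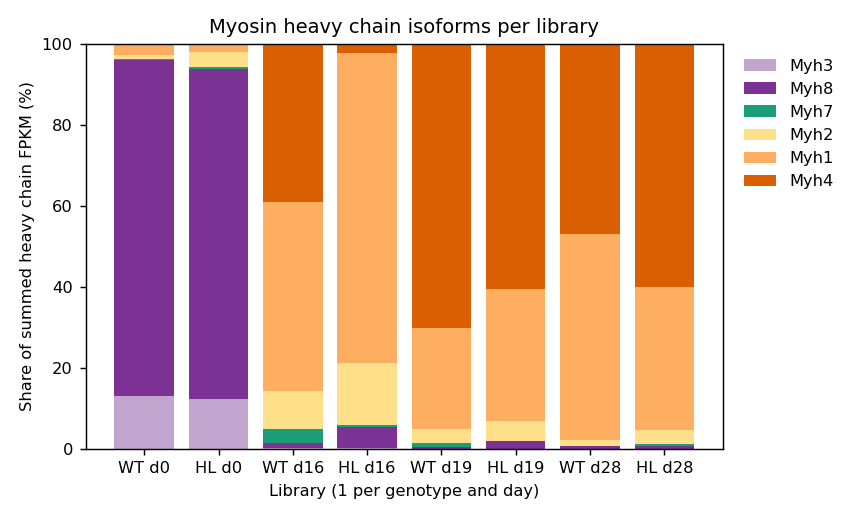
Share of each of 6 myosin heavy chain genes in their summed FPKM (percent, stacked to 100) in each library. Myh8 and Myh3 fill the day 0 bars, and the hairloss bar of day 16 is mostly Myh1 with 2.12% Myh4.

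In the other families the birth-type or slow isoforms also held their larger shares at day 0, with 2 exceptions. For troponin C, troponin I and the regulatory light chains the isoform followed is a slow gene (Tnnc1, Tnni1 and Myl2). Those shares set slow against fast genes rather than birth against adult ones. Actc1 made up 9.97% and 8.49% of Actc1 plus Acta1 at day 0 (wildtype, then hairloss) and at most 0.426% later, except for 2.0% in hairloss at day 28. Chrng made up 91.0% and 92.1% of Chrng plus Chrne at day 0, and 42.5% and 47.4% at day 16, 15.4% and 10.6% at day 19, then 28% and 16.3% at day 28, with both genes under 1 FPKM from day 16 on. Myl4 made up 9.61% and 9.15% of Myl1 plus Myl4 at day 0 and at most 2.66% later. The slow and fetal Tnnt1 and Tnnt2 made up 7.39% and 6.68% of troponin T at day 0 and still 6.14% and 4.59% at day 16. They were down to 1.75% and 1.23% at day 19 and to 1.80% and 0.716% at day 28. In wildtype, Tnnt2 was at 3.90 FPKM at day 16 and 3.74 at day 19, while Tnnt3 was at 144 and 649. Tnnt1 was at 5.55 and 7.81 FPKM in the same wildtype libraries. In hairloss at days 16 and 19, Tnnt1 was at 1.44 and 1.09 FPKM, Tnnt2 at 2.52 and 2.57, and Tnnt3 at 82.3 and 295. The higher share at day 16 thus came with a lower Tnnt3 in both genotypes, and its cause was not tested. In 6 of the 8 families the share of the birth-type or slow isoforms at day 0 was above every later library in both genotypes. The exceptions were Tnni1, at 3.53% of troponin I in wildtype at day 0 and 3.74% at day 16, and Myl2, the slow regulatory light chain, at 0.202% of Myl2 plus Mylpf in wildtype at day 0 and 3.17% at day 16.

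The genotypes were close at day 0. Of 38 members with at least 1 FPKM in either library, 1 was at least 2-fold higher in hairloss on log2(FPKM + 1) (1.49% of all genes) and 0 were lower (1.58% of all; 3.07% differed in either direction). That member was Myh2, at 9.34 FPKM in wildtype and 38.5 in hairloss, and the members' median difference was 0.27, against -0.01 for all genes. With 1 library per genotype, this and the other differences at a single age have no test and describe those libraries. Ucp1, a brown fat gene, stood at 101 FPKM in wildtype skin and 3.25 in hairloss skin of day 0, and its part in the day 0 values was not tested.

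At day 16 hairloss was the lower library. Of 33 members compared, 13 were at least 2-fold lower in hairloss (7.39% of all genes) and 1, Myh8, was higher (5.34% of all), with a median of -0.80 against -0.08 for all genes. The 13 were all 6 slow genes (Myh7, Myl2, Myl3, Tnnc1, Tnni1 and Tnnt1), the fast genes Myh4, Myl1, Mylpf, Actn3 and Pvalb, and the shared Ckm and Ttn. Myh4 was 30.5 times higher in wildtype, Pvalb 6.67 times and Mylpf, the fast regulatory light chain, 2.71 times (489 against 180 FPKM). Myh1 (94.9 and 93.7 FPKM), Myh2 (19 and 18.9) and Actn2 (14.1 and 13.7) were nearly level between the same 2 libraries.

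At day 19 more members passed the size rule in the same direction. Of 35 compared, 21 were lower in hairloss (5.76% of all genes) and 1, again Myh8, was higher (6.53% of all), with a median of -1.05 against -0.00. The 13 adult fast genes had a median ratio of wildtype to hairloss of 2.10, from 1.09 (Myh2) to 3.47 (Pvalb), and 9 of them passed. Ttn, the giant spring of the sarcomere, was at 144 FPKM in wildtype and 65.0 in hairloss, and Neb, the ruler of the thin filament, at 52.2 and 24.8. Mb was at 73.9 and 16.9 FPKM, 4.38 times higher in wildtype, and Actc1 at 7.79 and 1.73, 4.51 times higher.

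At day 28 the direction was the opposite. Of 35 compared, 24 were at least 2-fold higher in hairloss (5.6% of all genes) and 0 were lower (6.42% of all), with a median of 1.20 against 0.00 for all genes. The adult fast class held 12 of the 24, with a median ratio of hairloss to wildtype of 2.49, from 1.80 (Myl1) to 7.10 (Myh2). Myh4 was at 144 FPKM in wildtype and 567 in hairloss, Casq1, the calcium store of the sarcoplasmic reticulum, at 53.4 and 164, and Atp2a1, its calcium pump, at 123 and 339. Mb was nearly level at 34.6 and 37.8 FPKM. Actc1 was 15.0 times higher in hairloss. Tnni1 (3.68 and 1.52 FPKM) and Tnnt2 (3.46 and 1.70) were the other way round, under 2-fold on the log2(FPKM + 1) scale.

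**Figure D4:**
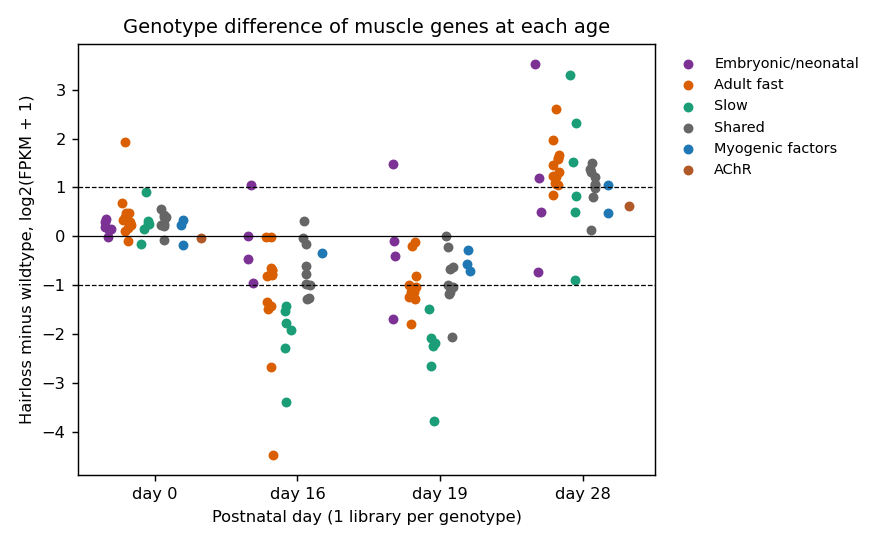
Hairloss minus wildtype on log2(FPKM + 1) at each postnatal day, 1 point per member with at least 1 FPKM in either library, coloured by class. Dashed lines mark 2-fold. Points lie near 0 at day 0, mostly below 0 at days 16 and 19 with the slow genes among the lowest, and mostly above 1 at day 28.

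At days 16 and 19 the slow genes had larger median gaps than the other classes. Myl2 was at 4.2 and 5.17 FPKM at day 0 (wildtype, then hairloss), 16 and 0.623 at day 16, 20.4 and 0.568 at day 19, and listed at 0 and at 8.87 at day 28. Myh7, the slow and cardiac heavy chain, was at 1.99 and 4.57, 6.74 and 0.586, 7.74 and 0.387, and listed at 0 and at 3.98 FPKM at the same ages. Tnnc1 was at 28.8 and 36.1, 4.71 and 0.515, 7.41 and 0.781, and 0.425 and 3.08 FPKM. These 3 were high in wildtype and low in hairloss at days 16 and 19, and low in wildtype and higher in hairloss at day 28.

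Over the 6 slow genes the median ratio of wildtype to hairloss was 9.71 at day 16 (3.86 to 25.7) and 10.2 at day 19 (4.67 to 35.9). The medians of the 13 adult fast genes were 1.75 and 2.10 at those ages. The summed level of the 6 slow genes was 41.0 FPKM against 4.40 at day 16 and 54.0 against 4.34 at day 19, wildtype first. It was 81.6 and 93.8 at day 0 and 6.92 and 22.8 at day 28. Myl3, the slow and ventricular alkali light chain, was at 0.550 and 1.73 FPKM at day 28, and Tnnt1 at 2.26 and 3.60.

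Several slow genes are also heart genes. Of the 7 heart markers, Myh6, Nppa, Mybpc3 and Nkx2-5 were at or near 0 in every library, with Myh6 at most 0.627 FPKM. Of the 50-base windows of Myh7, 21.2% also occur in Myh6. Myl7, an atrial light chain, was between 0 and 3.69 FPKM and higher in hairloss at all 4 ages, and Tnni3 was between 0.252 and 1.67. Nppb was at 14.2 and 11.4 FPKM in hairloss at days 16 and 19 and at most 1.17 elsewhere. The heart list summed to 1.45 to 2.78 FPKM in wildtype and 4.32 to 16.2 in hairloss, and its part in the slow gene values was not tested.

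**Figure D5:**
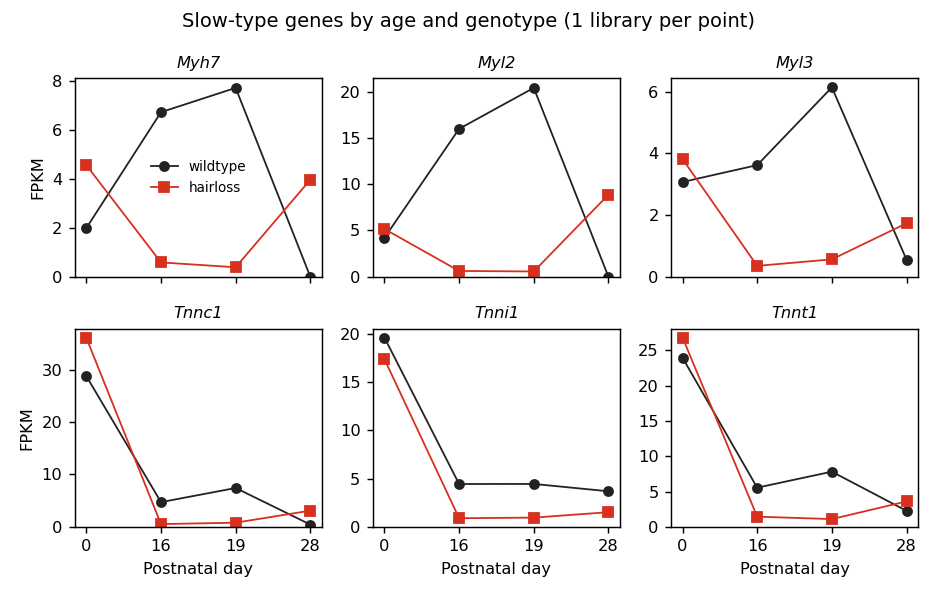
FPKM of the 6 slow-fibre genes against postnatal day, 1 panel per gene, with circles for wildtype and squares for hairloss and 1 library per point. At days 16 and 19 the wildtype points are above the hairloss points in all 6 panels, while at day 28 the hairloss point is above in all but Tnni1.

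Taking the 4 ages as pairs, limma called 0 of the 38 members between the genotypes (0.0267% of all genes rose and 0.0107% fell in hairloss, 0.0374% together), and 2 had an unadjusted p under 0.05, against 13.4% of all genes. These were Myh8, higher in hairloss at 4 of 4 ages by 1.02 ± 0.20 (limma, adjusted p = 0.305), and Tnni1, lower at 4 of 4 ages by 1.02 ± 0.26 (adjusted p = 0.322). The spread in this fit is that of the difference over ages, so a gap that turns between day 19 and day 28 enters it as error.

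Further muscle genes, in 6 lists, were counted beside the members. Of all 18724 genes tested, 5.11% rose and 6.72% fell after day 0. Among 18 genes of excitation-contraction coupling, the step from nerve signal to calcium release, 0 rose and 3 fell after day 0, with differences of -3.63 for Sln, sarcolipin, -3.60 for Casq2, the slow and cardiac calsequestrin, and -1.61 for Cacng1, a calcium channel subunit (limma, adjusted p = 0.0144, 0.00421 and 0.0319). Among 31 genes of sarcomere assembly, 0 rose and 10 fell, among them Csrp3, a Z-disc protein (-2.71), and Mybpc1, slow myosin-binding protein C (-2.5; limma, adjusted p = 0.0143 and 0.0229). Of 8 genes of muscle progenitors and fusion, 5 fell, including Mymk, which encodes the fusion protein myomaker, at 5.46 and 4.62 FPKM at day 0 and at most 0.257 later (difference -2.34, limma, adjusted p = 0.00754). Of 7 genes of the neuromuscular junction 3 fell (Chrnb1, Dok7 and Chrnd), of 11 of the dystrophin complex 2 fell (Cav3 and Dtna), and of 17 energy genes limma called 0. The counts of the dystrophin and energy lists are too small to tell from the shares of all genes. All 6 lists were chosen with results of the same libraries known.

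Between the genotypes, the medians of the coupling, assembly and energy lists (hairloss minus wildtype, log2) were -0.64, -0.60 and -1.27 at day 19, and between 0.84 and 1.02 at day 28. At day 19, 6 of 18 coupling genes, 6 of 31 assembly genes and 10 of 17 energy genes were at least 2-fold lower in hairloss (5.76% of all genes), with 1 coupling gene, Sln, higher. At day 28, 9 of 18, 17 of 31 and 7 of 17 were higher (5.6% of all genes) and 0 lower. At day 16 the counts lower in hairloss were 2 of 17, 2 of 29 and 3 of 17, with 1 energy gene higher, and with 7.39% of all genes lower the first 2 counts are near the background. Cox6a2, the muscle subunit of cytochrome oxidase, was at 96.3 FPKM in wildtype and 21.5 in hairloss at day 19, and Ankrd23 at 48.3 and 15.7. At day 28 Ckmt2, the mitochondrial creatine kinase, was at 10.2 and 40.4 FPKM, and Mybpc2, fast myosin-binding protein C, at 26.6 and 107. The smaller lists held few passing genes. The junction list had 2 of 4 lower at day 19 and 1 of 3 higher at day 28, the dystrophin list 1 of 11 each, and the progenitor list 1 of 3 and 0 of 4. At day 16 these 3 lists had 0.

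Markers of other skin tissues moved beside the muscle genes. On log2(FPKM + 1), hairloss minus wildtype, the median at days 16, 19 and 28 was -0.26, -0.62 and 0.31 for smooth muscle genes (10, 10 and 9 compared), -0.26, -0.85 and 0.74 for 10 adipocyte genes, and 0.50, -0.82 and 0.78 for 8 genes of dermal fibroblasts. It was -0.46, -0.75 and 0.78 for 8 genes of Schwann cells, -0.06, -0.73 and 0.78 for 8 of endothelium, and -0.07, -0.74 and 1.05 for brown fat genes (6, 5 and 6 compared). All 6 of these dermal lists were below 0 at day 19 and above 0 at day 28, with medians closer to 0 than that of the 40 muscle members. The further muscle lists did not all stand apart in this way at day 19. Coupling (-0.64), assembly (-0.60), dystrophin (-0.65) and progenitor (-0.22) genes were closer to 0 than the adipocyte, fibroblast, Schwann cell, endothelial and brown fat lists. Energy (-1.27) and junction (-0.95) genes were further from 0. The brown fat list shares Cox7a1 with the muscle energy list, so it is not fully separate from muscle. Basal and suprabasal keratins were at 1.31, 1.04 and 1.16, and hair shaft keratins at -2.04, 3.62 and -8.39. The summed level of smooth muscle genes ranged from 144 to 256 FPKM, of adipocyte genes from 993 to 1830, and of hair shaft keratins from 19.9 to 4327. The part of these tissues in the muscle values was not tested.

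Among coding genes outside the lists, those whose log2(FPKM + 1) followed Acta1 most closely over the 8 libraries were Sypl2 and Dhrs7c, both proteins of the muscle calcium store, with Asb5, St3gal6 and Tmod1, at a Pearson correlation of 0.97 to 0.98. Sypl2 was at 1.36 FPKM in hairloss at day 16 and 15.1 in hairloss at day 28. Arhgap36, Igsf1, Serpinb3c, Tmem255a and Zdbf2 followed Myh3 at 0.995 to 0.998, each near 5 FPKM or above only at day 0. With 11243 genes compared over 8 libraries that share age, these correlations are descriptions.

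Some values rest on shared sequence. Of the exon bases of Tnnc2, 74.0% overlap Ube2c on the opposite strand. Also on the opposite strand, 27.6% of those of Mb overlap Gm49540, 21.9% of those of Atp2a1 overlap Rabep2, and 15.5% of those of Ckm overlap A930016O22Rik. Myh1 and Myh7 overlap the antisense genes Myhas (8.1%) and Mhrt (5.6%). Strand handling was not given in the sources used here, so such partners cannot be told apart. Myl1 shares 16% of its windows with the pseudogene Mylf-ps. Rapsn, a junction gene, was listed at 0 in every library and Pygm, the muscle glycogen phosphorylase, at most at 0.065 FPKM, so a listed 0 in these tables can be a failed estimate. Myh7 and Myl2 differ in that they were listed at 0 only in wildtype at day 28. In that library the slow genes Tnnc1 and Myl3 were at 0.425 and 0.550 FPKM, and Tnnt1 and Tnni1 at 2.26 and 3.68. Whether the 0 of Myh7 and Myl2 is a failed estimate was not tested.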

How the data were processed

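RNA of mouse skin was isolated with RNeasy columns and made into libraries with TruSeq kits, per the labels' protocols. Cutadapt, Cuffdiff and build mm10 are the names given per the submitters' processing notes, with no version. The aligner, the annotation release, strand handling and the animals per library were not given in the sources used here. For each library the authors deposited 1 value per gene with no unit. These deposited values were read as FPKM, an inference from the name Cuffdiff in those notes and from the lowest values, which scale with transcript length. Depth was estimated from those lowest values. The deposited files hold no counts.

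The scale was log2(FPKM + 1), on which folds of low genes come out too small. At each age, a member passed at 2-fold or more with at least 1 FPKM in either library. Ages and genotypes were tested with limma 3.58.1 under R 4.3.3 (age and genotype as terms, robust eBayes with a trend, 18724 genes reaching 1 FPKM in any library, two-sided, Benjamini-Hochberg, threshold 0.05), tried first on simulated data. Groups come from the labels, and with 1 library in each group age served as the block. Tables were made with Python 3.11.15 and pandas 2.3.3. Gene symbols are those of the files, and coordinates come from GENCODE M21.

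All 40 members could be named. Of each other list, up to 4 genes with the largest difference were named, and the 5 genes most correlated with Acta1 and with Myh3. A few list genes were named to resolve a small count or as known examples, after their values were seen. Members and lists were chosen with earlier results of these data known. Alternatives were a pseudocount of 0.1 or 5, no filter or 5 FPKM, libraries rescaled to equal coding FPKM without keratins, each age left out, and plainer models.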

Additional observations from a re-analysis of the deposited data

Results flagged for a closer look

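In 17 members the genotype difference passed 2-fold in opposite directions at 2 ages, lower in hairloss at day 16 or 19 and higher at day 28. The share of all genes that turned by this rule was not counted. These counts therefore do not show whether the turn is particular to muscle genes. How far the difference moved is given on the log2(FPKM + 1) scale, and with 1 library per genotype and age it was not tested. No cause was tested.

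From day 16 to day 28, 9 members turned. Of slow genes, Myl2 moved by 6.69, Myh7 by 4.6 and Tnnc1 by 3.43. Of fast genes, Myh4 moved by 6.45, Pvalb by 4.33, Actn3 by 3.09 and Mylpf by 2.49. Ttn moved by 2.64 and Ckm by 2.35.

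From day 19 to day 28, 16 members turned. Myl2 moved by 7.07, Actc1 by 5.22, Myh7 by 4.97, Tnnc1 by 3.76 and Pvalb by 3.46. The calcium-handling genes Casq1 and Atp2a1 moved by 2.74 and 2.48. Actn3 moved by 2.64, Neb by 2.55, Ttn by 2.50 and Tnnt3 by 2.37. Mylpf moved by 2.33, Myoz1 by 2.26, Ckm by 2.25, Tnnc2 by 2.15 and Acta1 by 2.05. Myl2 and Myh7 were listed at 0 in wildtype at day 28, so their values rest on a 0 that can be a failed estimate.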

How the results depend on the processing

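No value past a threshold reversed its direction under the alternatives run, but 56 values that limma called neither way changed sign. Without day 0, the genotype difference over ages became -0.074 in Atp2a1, -0.073 in Casq1, -0.10 in Myf6 and 0.026 in Myod1. Without day 16, the later minus day 0 difference became 0.19 in Atp2a1 and 0.13 in Casq1, and the genotype difference over ages became 0.14 in Acta1, 0.31 in Actn3, -0.00328 in Chrng, 0.11 in Ckm, 0.61 in Myh4, 0.19 in Myh7, 0.22 in Myoz1, 0.23 in Neb, 0.017 in Pvalb, 0.088 in Tnnc2, 0.22 in Tnni2, 0.14 in Tnnt3 and 0.15 in Ttn. Without day 19, the genotype difference over ages became 0.15 in Acta1, 0.16 in Actn3, 0.079 in Ckm, 0.31 in Myh7, 0.053 in Myl2, 0.16 in Myod1, 0.31 in Myoz1, 0.32 in Neb, 0.19 in Tnnc2, 0.32 in Tnni2, 0.25 in Tnnt3 and 0.11 in Ttn. Without day 28, the later minus day 0 difference became 0.17 in Myh2, and the genotype difference over ages became -0.84 in Actc1, -0.45 in Atp2a1, -0.45 in Casq1, -0.13 in Des, -0.15 in Myf6, -0.11 in Myh1, -0.14 in Myog and -0.34 in Ryr1. With libraries rescaled, the day 19 minus day 16 step became 0.10 in Myh7 and 0.10 in Tnnt2, and the day 28 minus day 19 step became -0.064 in Mb, -0.00895 in Myog, -0.072 in Myoz1 and -0.000628 in Tnni1, and the genotype difference over ages became -0.00368 in Myf6. With a pseudocount of 0.1, the day 28 minus day 19 step became -0.028 in Chrna1 and -0.00489 in Myog, and the genotype difference over ages became 0.048 in Myod1. With a pseudocount of 5, the day 16 minus day 0 step became 0.17 in Myl2, and the day 19 minus day 16 step became 0.033 in Myh7, and the day 28 minus day 19 step became -0.013 in Mb, and the later minus day 0 difference became 0.083 in Myl2, and the genotype difference over ages became 0.00912 in Myoz1 and 0.015 in Neb. With a pseudocount of 0.1, 2 members were higher in hairloss at day 0, 1 was lower at day 28, and 2 rose from day 0 to day 16. With a pseudocount of 5, 0 were higher in hairloss at day 16 and 0 at day 19. Without day 16, 0 members rose after day 0 and 3 fell, in a fit with fewer libraries. Without a filter on low values, 0 rose and 7 fell from day 0 to day 16, and with at least 5 FPKM in some library 2 rose. The causes of the last changes were not tested. The count of members called between genotypes over ages was 0 in every alternative. Rescaling the libraries moved the median of all genes to -0.10 at day 19 and 0.11 at day 28, with 22 members lower and 1 higher at day 19 and 25 higher at day 28. Age was the block that paired the genotypes, the labels give no replicate numbers for another pairing, and without that block the count was also 0. A level under about 0.1 FPKM rests on few fragments, and 1 library per group limits every difference at a single age.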
